A study of Homo sapiens with 24 samples.

Results

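CDKN1B, CDKN2A, CDKN2B, CDKN2C and CDKN2D encode inhibitors of the cyclin-dependent kinases (CDKs) that drive cells from G1 into S phase. They were taken by name from the endogenous probes of an nCounter cell cycle panel, which made 5 genes of 189, and were followed in all 24 libraries. The panel counts RNA molecules directly with 1 probe pair a gene, without amplification. Colorectal cancer HCT116 cells received 50 nM of a control siRNA (HCT116 siCTRL) or of an siRNA named siCARLo-7 v2, siCARLo-5, siCARLo-4, siCARLo-3 or siCARLo-1 v3. PC3 cells, a prostate cancer line, received 100 nM of a control siRNA (PC3 siCTRL) or of siCARLo-1 v2&4. All groups were transfected with Lipofectamine RNAiMAX, and each of the 8 groups held 3 libraries. CARLos are long non-coding RNAs per the series title. None has a probe on the panel, and so the data hold no check of the knockdown itself. The labels do not say whether replicates came from separate cultures. The p-values thus cover only the spread between these samples, which may be technical.

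The 4 INK4 proteins p16 (CDKN2A), p15 (CDKN2B), p18 (CDKN2C) and p19 (CDKN2D) bind CDK4 and CDK6 and keep them from pairing with D-type cyclins, so that the retinoblastoma protein stays unphosphorylated and holds E2F factors in check. p27 (CDKN1B) belongs to the other family, CIP/KIP, and inhibits CDK2 bound to cyclin E or A. Its amount in cells is set largely by SKP2-directed degradation of the protein, which a transcript count does not see. CDKN2B is a textbook target of TGF-beta signalling through SMADs and is repressed by MYC. CDKN2A also encodes ARF, an inhibitor of MDM2, from another first exon and reading frame.

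CDKN2A and CDKN2B are neighbours. On GRCh38.p14, RefSeq places CDKN2A at chromosome 9, 21967752 to 21995324, and CDKN2B at 22002903 to 22009313, which leaves 7578 bases between them. CDKN2C lies on chromosome 1 (50960745 to 50974634), CDKN2D on chromosome 19 (10566460 to 10568979) and CDKN1B on chromosome 12 (12717368 to 12722369). All 5 panel accessions matched RefSeq genes of the same symbol. The CDKN2A probe was designed on an accession of the ARF transcript, whose later exons p16 shares. The sources used here do not give where on it the probe lies, so counts of p16 and ARF transcripts cannot be told apart. CDKN2A and CDKN2B are related in sequence, and cross-hybridisation of their probes was not tested.

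The 250 bases before the RefSeq start in the RefSeq promoter table are shown for CDKN2B, CDKN2D and CDKN1B, which were called in 6, 5 and 4 of the 12 comparisons below, against 2 for CDKN2A and 1 for CDKN2C. They are RefSeq sequence of GRCh38.p14, read 5′ to 3′ in the direction of the gene. CDKN2B is chr9:22009306-22009555 on the minus strand, CDKN2D is chr19:10568980-10569229 on the minus strand and CDKN1B is chr12:12717118-12717367 on the plus strand. The last 8 bases of the CDKN2B window lie within the span of the gene given above, since the promoter table places its start that far inside the span. Capitals mark matches, on either strand, to the GC box GGGCGG or the CCAAT box.
CDKN2B: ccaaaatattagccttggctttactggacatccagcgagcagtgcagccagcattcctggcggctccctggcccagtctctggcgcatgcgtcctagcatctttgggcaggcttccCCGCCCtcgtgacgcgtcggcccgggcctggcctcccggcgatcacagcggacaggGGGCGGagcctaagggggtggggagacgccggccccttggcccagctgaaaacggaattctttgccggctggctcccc
CDKN2D: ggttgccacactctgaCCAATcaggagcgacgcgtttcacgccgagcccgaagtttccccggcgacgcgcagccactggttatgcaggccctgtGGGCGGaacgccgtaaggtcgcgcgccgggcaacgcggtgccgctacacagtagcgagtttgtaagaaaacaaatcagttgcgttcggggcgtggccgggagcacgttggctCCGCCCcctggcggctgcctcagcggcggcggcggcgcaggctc
CDKN1B: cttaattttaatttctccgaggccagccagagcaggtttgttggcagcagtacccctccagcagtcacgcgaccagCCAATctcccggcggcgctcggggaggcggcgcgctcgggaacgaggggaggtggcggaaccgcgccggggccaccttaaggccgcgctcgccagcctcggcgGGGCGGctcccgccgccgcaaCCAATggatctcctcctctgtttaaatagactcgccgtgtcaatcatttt
CDKN2B had 2 GC boxes and 0 CCAAT boxes, CDKN2D had 2 and 1, and CDKN1B had 1 and 2. Of 35116 RefSeq windows of that length, 42.6% held a GC box and 32% a CCAAT box. The E2F words TTTCCCGC, TTTCGCGC, TTTGGCGC and TTTGCCGC, present in 2.79% of the windows, and the E-box CACGTG, present in 6.34%, were searched on both strands and had no match in these 3 windows. The GC content was 66.4% for CDKN2B, 67.6% for CDKN2D and 64.4% for CDKN1B. None of the motifs searched overlapped another in them.

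The 21 libraries with raw counts held 55893 to 236508 endogenous counts each. In each library 167 to 184 genes lay above background, set at 2 SD over the mean of its 8 negative probes (4.64 to 16.1). PC3 siCARLo-1 v2&4 was deposited as values already scaled by the authors, not as raw counts. HCT116 siCARLo-1 v3 replicate 3 stood apart from replicates 1 and 2 of its group, with a chi-square per degree of freedom of 56.2 and 50.2 over the panel against 1.18 to 4.46 for the other pairs of libraries of 1 group, and the calls of members in that group are given with and without it. The positive control sums of the authors' series-wide table fall into 4 sets, and each siCARLo group is in another set than its control, so set and siRNA cannot be told apart there. The ratio of positive controls A and B, RNAs spiked into the assay, ranged from 1.97 in PC3 siCARLo-1 v2&4 and 2.01 in HCT116 siCTRL to 2.90 in siCARLo-7 v2. CDH1, the epithelial cadherin, was higher in PC3 siCTRL than in HCT116 siCTRL by a log2 difference of 2.18. TWIST1, a mesenchymal marker, was also called higher in PC3 siCTRL, and the median of the 2 genes was 2.65. TWIST1 lay above background in too few HCT116 libraries to be tested within HCT116. It entered the comparison of the lines only through PC3 siCTRL, the group where it was higher, so its call and this median are no separate support. Of the 184 genes tested between the 2 control groups, 72.8% were called.

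CDKN1B, CDKN2A, CDKN2B and CDKN2D lay above background in all 24 libraries, with deposited values of 38 to 120 for CDKN1B. CDKN2C lay above it in 6 of 24. Levels below are counts per 100000 endogenous counts scaled with TMM, which sets each library against the bulk of the panel, so that a shift of the whole panel in 1 direction cancels out. They are compared between groups for 1 probe at a time and never between probes.

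**Figure D1:**
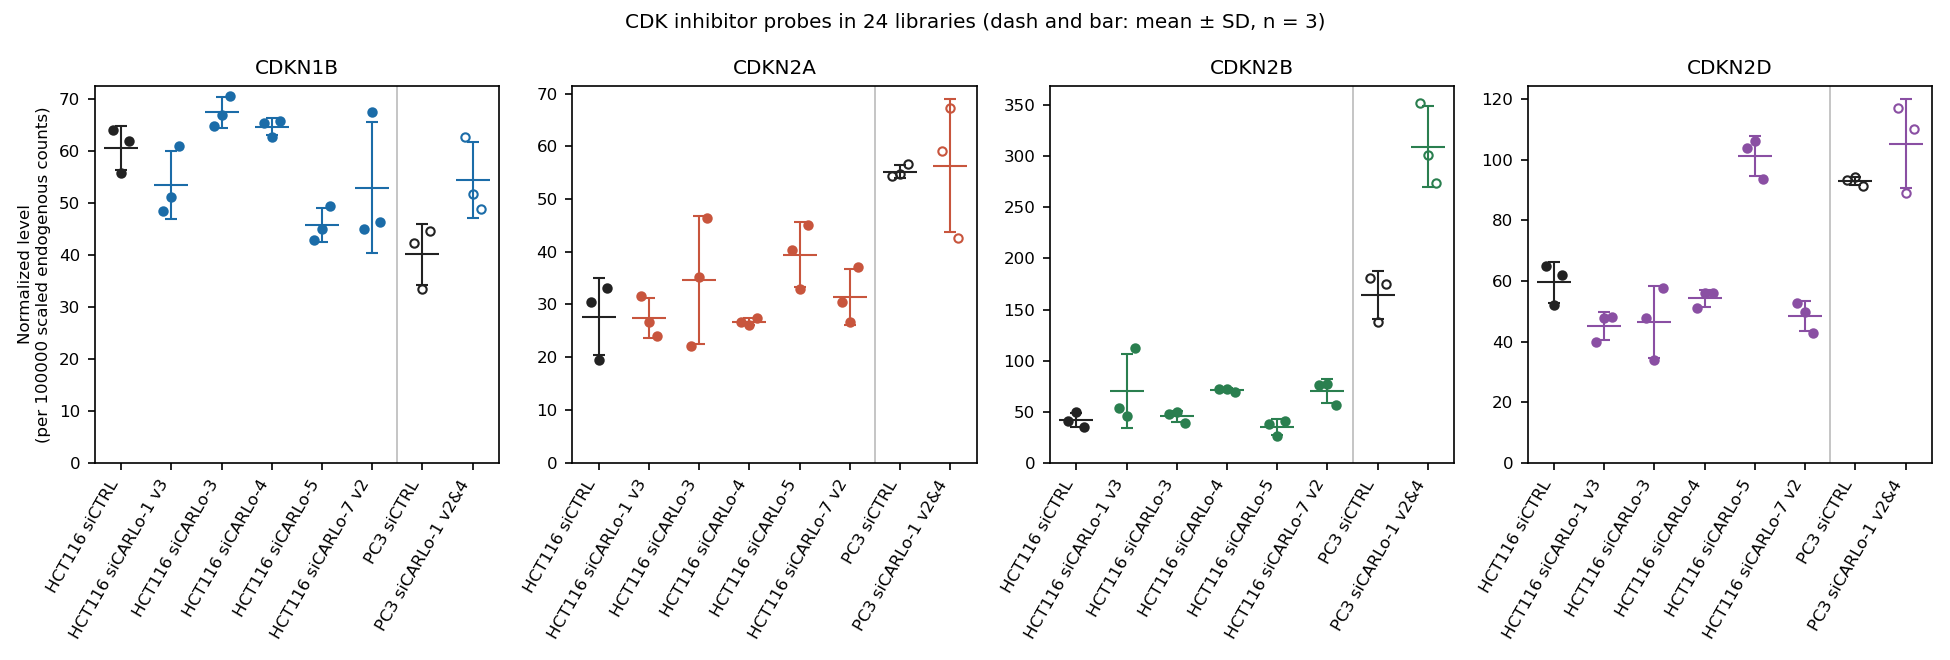
Normalized level (counts per 100000 TMM-scaled endogenous counts, linear axis from 0) of CDKN1B, CDKN2A, CDKN2B and CDKN2D in the 24 libraries. Points are libraries (black for control siRNA, open for PC3), and dash and bar are mean ± SD of 3. CDKN2B lay highest in PC3 siCARLo-1 v2&4 (274 to 353), and CDKN2D in HCT116 siCARLo-5 (93.7 to 106) lay above every other HCT116 library.

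The HCT116 comparisons asked which inhibitor transcripts differed after each siCARLo. siCARLo-5 went with the most member calls, 4 of 5, among them higher CDKN2D and lower CDKN1B, where 55.1% of the 178 genes tested were called (edgeR quasi-likelihood test, adjusted p under 0.05). CDKN2B was higher with siCARLo-4, 1 call of 5 against 35.4% of the panel, and with siCARLo-7 v2, 1 of 5 against 37.1%. With siCARLo-1 v3, 2 of 5 were called, CDKN2B and CDKN2D, against 41% of the panel. With siCARLo-3, 0 of 5 were called by edgeR where 52.2% of the panel was, 1 at an unadjusted p under 0.05, 1 by limma and 0 by DESeq2. The members' shares lie on both sides of the panel's, and all 5 comparisons use the same 3 control libraries.

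**Figure D2:**
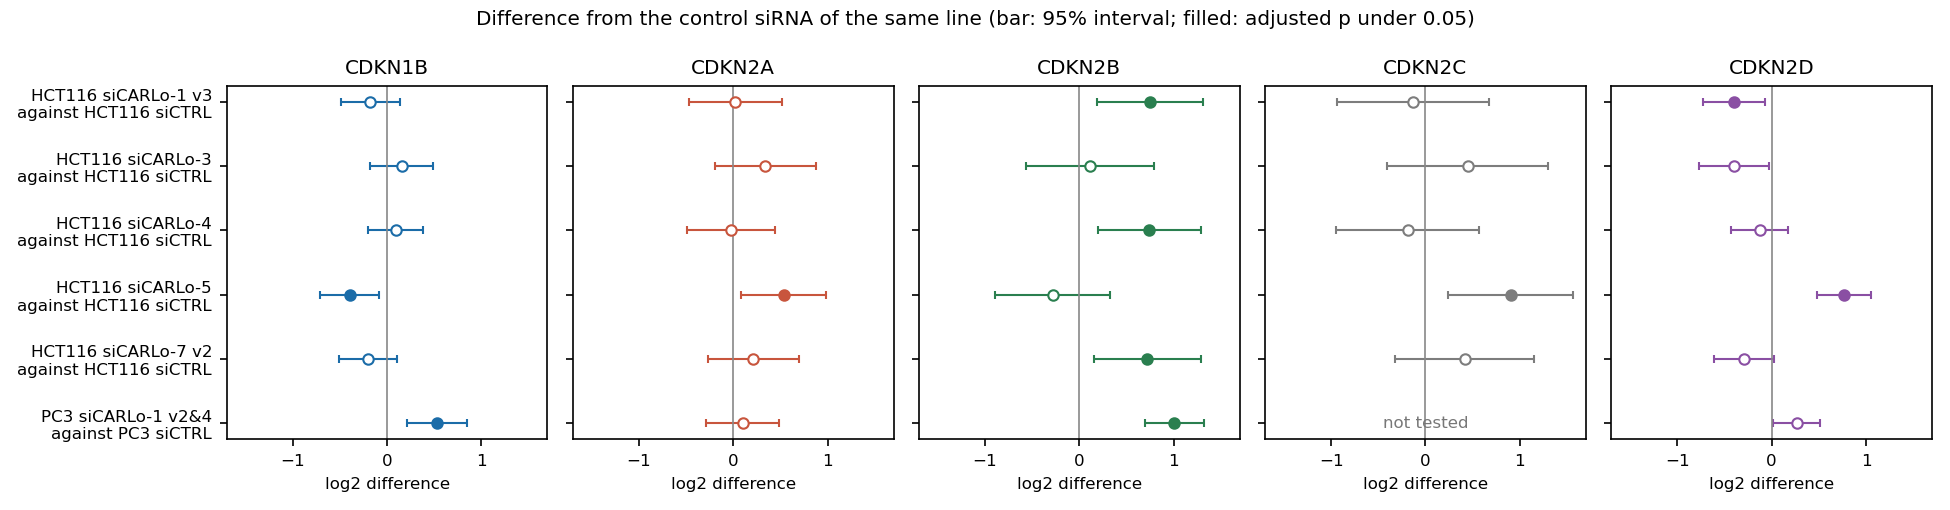
Log2 difference (x axis) of each member between a siCARLo group and the control siRNA of its line (rows), with its 95% interval, from edgeR for HCT116 and limma for PC3. Filled points have an adjusted p under 0.05. CDKN2D with siCARLo-5 (0.77) and CDKN2B with PC3 siCARLo-1 v2&4 (1.01) are the filled points farthest from 0 relative to their intervals, and CDKN2C was not tested in PC3.

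CDKN2D encodes p19-INK4D. Its counts in the 3 HCT116 siCTRL libraries were 81, 67 and 56, or 64.9, 52.0 and 61.9 on the normalized scale. In siCARLo-5 they were 126, 168 and 152, or 103.9, 106.3 and 93.7. Every siCARLo-5 library lay above every control. The log2 difference was 0.77 ± 0.14 (SE), 1.7-fold, adjusted p = 1.4e-04. The call held in every leave-one-out fit and was lost with scaling to the positive controls (0.36, adjusted p = 0.10).

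In the other HCT116 groups CDKN2D was at or below the control level. In siCARLo-1 v3 its levels were 39.9, 47.7 and 48.1, all under the lowest control, and the difference was called (-0.40 ± 0.16, 1.32-fold lower, adjusted p = 0.047). It held in 4 of 11 alternatives that kept all libraries or merged 2 controls, scaling to the positive controls among them (-0.59), and without replicate 3 of siCARLo-1 v3 (-0.46, adjusted p = 0.041). The call was lost with scaling to 6 reference genes (-0.29, adjusted p = 0.19), DESeq2 (adjusted p = 0.12), limma (0.055), only the groups compared (0.081), merged controls (0.078), the replicate block (0.060) and the series-wide table (0.57), and when control replicate 1 or 3 or replicate 1 or 2 of siCARLo-1 v3 was left out (adjusted p 0.053 to 0.17). The difference with siCARLo-3 (-0.40 ± 0.18) was not called at an adjusted p of 0.064, its 3 levels of 47.7, 34.1 and 57.6 overlapping the controls. It was called without control replicate 2 (-0.52) or siCARLo-3 replicate 3 (-0.57), and with the positive controls (-1.01), 6 reference genes (-0.55), the series-wide table (-0.53), limma (-0.38) and negative probe subtraction (-0.45). Differences of -0.12 with siCARLo-4 (95% interval -0.43 to 0.18) and -0.29 with siCARLo-7 v2 (-0.61 to 0.03) were not called.

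CDKN2B encodes p15-INK4B. HCT116 siCTRL held 51, 64 and 32 counts, or 40.8, 49.6 and 35.4 normalized. With siCARLo-4 there were 95, 138 and 121 counts, or 72.3, 72.1 and 69.1. With siCARLo-7 v2 there were 100, 87 and 69, or 76.3, 77.2 and 57.0. Neither siRNA group overlapped the controls. The log2 differences were 0.74 ± 0.26 for siCARLo-4 (1.67-fold, adjusted p = 0.030) and 0.72 ± 0.27 for siCARLo-7 v2 (1.65-fold, adjusted p = 0.043).

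The library that stands apart weighs on both calls through the spread that all HCT116 groups share. With siCARLo-1 v3 replicate 3 out of the fit, a choice made after seeing the data, the adjusted p was 8.5e-04 for siCARLo-4 and 0.0015 for siCARLo-7 v2, at unchanged differences. With it in, the siCARLo-4 call was lost without control replicate 1 or 3 or any 1 of its own libraries (0.65 to 0.76, adjusted p 0.058 to 0.096). The siCARLo-7 v2 call was lost without control replicate 1 or 3 or its own replicate 1 or 2 (0.63 to 0.69, adjusted p 0.11 to 0.12). Both held with scaling to the positive controls.

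For siCARLo-1 v3, 1 library decided the CDKN2B call. Its counts were 77, 41 and 140, or 54.0, 45.5 and 112.2 normalized, so that replicate 2 lay within the controls and replicate 3 far above. The difference was 0.75 ± 0.27 (1.68-fold, adjusted p = 0.030) with all 3 libraries and 0.25 (adjusted p = 0.36) without replicate 3. It was also lost without control replicate 1 or 3 (0.72 and 0.66) and with limma, only the groups compared, merged controls, the replicate block, the positive controls and negative probe subtraction (0.54 to 0.81, adjusted p 0.052 to 0.12). CDKN2B with siCARLo-3 (47.7, 49.3 and 39.0; log2 0.11, adjusted p = 0.80) and siCARLo-5 (37.9, 26.6 and 40.7; log2 -0.28, adjusted p = 0.42) overlapped the controls, and with the positive controls CDKN2B was called lower with siCARLo-5 (-0.68, adjusted p = 0.015).

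CDKN2A counts in HCT116 siCTRL were 38, 25 and 30, or 30.4, 19.4 and 33.2. In siCARLo-5 they were 49, 52 and 73, or 40.4, 32.9 and 45.0. Replicate 2 of siCARLo-5 lay within the controls. The difference was called at 0.54 ± 0.21 (1.45-fold, adjusted p = 0.041). It was not called without control replicate 2 (0.30, adjusted p = 0.28), without siCARLo-5 replicate 1 or 3, or with scaling to the positive controls (0.13) or 6 reference genes (0.39), limma (0.52), merged controls (0.45) or negative probe subtraction (0.57). In the other 4 siCARLo groups the differences ran from -0.02 (siCARLo-4) to 0.34 (siCARLo-3) and none was called. In siCARLo-3 the libraries spread from 22.2 to 46.5, on 13 to 30 counts.

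CDKN2C, which encodes p18-INK4C, was close to background throughout. HCT116 siCTRL held 7, 6 and 6 counts against backgrounds of 11.3, 8.94 and 10.4. siCARLo-5 held 13, 15 and 18 against 9.38, 16.1 and 13, which put 2 of its 3 libraries above background. edgeR called it (0.90 ± 0.31, adjusted p = 0.029), but since the controls lie below background the size of the difference is not given as a fold. DESeq2 gave CDKN2C no adjusted p there. The call was lost without control replicate 1 or 2, without siCARLo-5 replicate 3 (adjusted p 0.068 to 0.13), with either other scaling and with merged controls. CDKN2C could be tested only because other siRNA groups were in the fit, with 5 of 18 HCT116 libraries above background. In a fit of only the groups compared it did not pass the filter of 3 libraries.

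**Figure D3:**
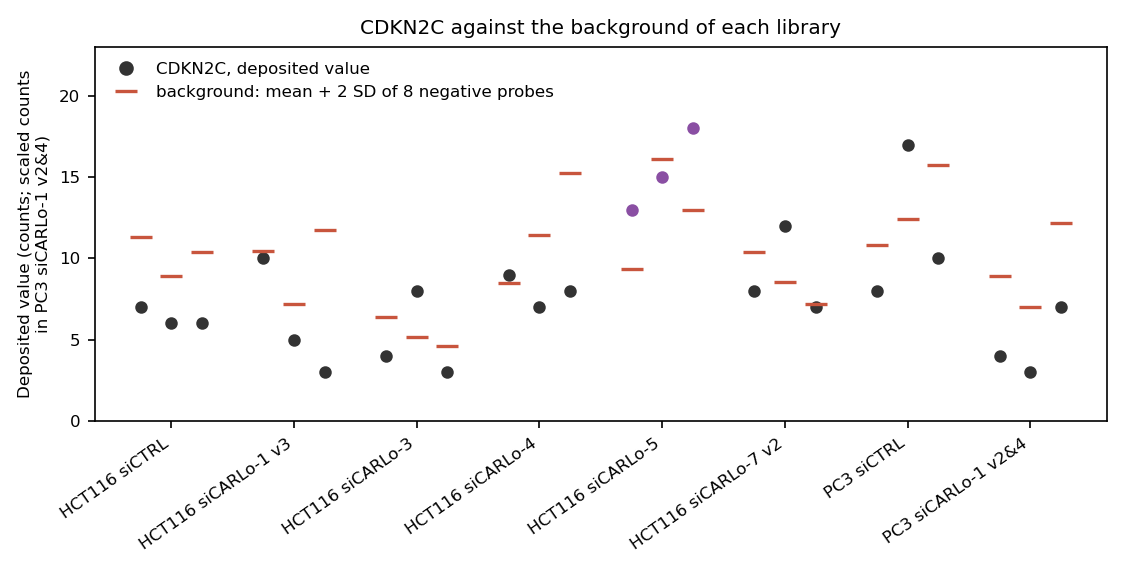
Deposited CDKN2C value of each library (points, purple for HCT116 siCARLo-5) beside its background, 2 SD over the mean of its 8 negative probes (red dashes). The y axis is in counts, except PC3 siCARLo-1 v2&4, which holds scaled counts. Points lie above their dash in 6 of 24 libraries.

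CDKN1B was lower with siCARLo-5. HCT116 siCTRL held 80, 72 and 56 counts, or 64.1, 55.8 and 61.9, and siCARLo-5 held 52, 71 and 80, or 42.9, 44.9 and 49.3. The groups did not overlap on the normalized scale, while the raw counts did. The difference was -0.40 ± 0.15 (1.32-fold lower, adjusted p = 0.028). The call was lost with DESeq2 (adjusted p = 0.062) and without control replicate 1 or 3 or siCARLo-5 replicate 1 or 2 (adjusted p 0.062 to 0.095).

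In the other HCT116 groups CDKN1B differed from the control by -0.20 (siCARLo-7 v2) to 0.15 (siCARLo-3), and none was called. The 3 siCARLo-3 libraries (64.8, 67.0 and 70.6) all lay above the controls, but with the positive controls the difference was called lower (-0.47, adjusted p = 0.024). The siCARLo-7 v2 libraries split into 67.4 for replicate 2 and 45.0 and 46.3 for the others, and without replicate 2 the difference was called (-0.41, adjusted p = 0.049).

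4 contrasts set siCARLo groups of 1 set of positive control sums against each other, with no control library. siCARLo-7 v2 against siCARLo-5 moved CDKN2B and CDKN2D in opposite directions, 2 calls of 5 where 52.2% of the 178 genes were called. CDKN2B was 57.0 to 77.2 in siCARLo-7 v2 and 26.6 to 40.7 in siCARLo-5. It was higher by 1.0 ± 0.26 (2-fold, adjusted p = 0.0041). CDKN2D was 42.9 to 52.6 in siCARLo-7 v2 and 93.7 to 106.3 in siCARLo-5. It was lower by -1.06 ± 0.14 (2.09-fold lower, adjusted p = 9.2e-06). Neither gene's groups overlapped, and both calls held under every alternative run, with log2 differences of 0.83 to 1.35 and -1.13 to -0.72. CDKN1B (0.20), CDKN2A (-0.32) and CDKN2C (-0.49) were not called. Within this set the ratio of positive controls A and B was 2.90 in siCARLo-7 v2 and 2.37 in siCARLo-5, and its part in the result was not tested.

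The other 3 contrasts, siCARLo-3 against siCARLo-1 v3, siCARLo-4 against siCARLo-1 v3 and siCARLo-4 against siCARLo-3, had 0 member calls by edgeR, where 55.1%, 45.5% and 43.8% of the panel were called. The numbers of members with an unadjusted p under 0.05 were 1, 0 and 1, DESeq2 called 0 in each, and limma called 1, 0 and 0. CDKN2B was 69.1 to 72.3 in siCARLo-4 and 39.0 to 49.3 in siCARLo-3, groups that did not overlap (0.63 ± 0.29, adjusted p = 0.079). That difference was called without siCARLo-1 v3 replicate 3 in the shared spread (adjusted p = 0.0065), in a fit of only the groups compared (0.65, adjusted p = 0.0026) and with scaling to the positive controls (1.09) or 6 reference genes (0.80). CDKN2B was lower in siCARLo-3 than in siCARLo-1 v3 by -0.64 (adjusted p = 0.078, not called), and by -0.13 (adjusted p = 0.66) without replicate 3 of siCARLo-1 v3. Against siCARLo-1 v3, CDKN2B in siCARLo-4 differed by -0.01 with replicate 3 of that group and by 0.49 (adjusted p = 0.024) without it. CDKN1B, higher in siCARLo-3 than in siCARLo-1 v3 in all 3 libraries (0.33, adjusted p = 0.090), was called without that replicate (0.44, adjusted p = 0.035).

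In PC3, siCARLo-1 v2&4 was compared with the control siRNA of that line. CDKN2B and CDKN1B were higher, 2 calls of the 4 members tested, where 76% of the 179 genes were called, so the count says little of the members (limma on log2 values, TMM-scaled, with 1 added before the log). CDKN2B was 180.4, 137.7 and 175.1 in PC3 siCTRL and 352.6, 301.7 and 274.3 in siCARLo-1 v2&4. The groups lay far apart, with a difference of 1.01 ± 0.13 (2.01-fold, adjusted p = 4.4e-04). CDKN1B was 42.2, 33.4 and 44.7 in PC3 siCTRL and 62.7, 51.7 and 48.8 after the siRNA. Its groups also did not overlap (0.53 ± 0.13, 1.45-fold, adjusted p = 0.0097).

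CDKN2D in PC3 was 93.4, 94.2 and 91.5 in the control and 117.1, 88.9 and 110.2 with siCARLo-1 v2&4 (0.27 ± 0.10, adjusted p = 0.052). It was called higher without siCARLo-1 v2&4 replicate 2 (0.38, adjusted p = 0.0022), with 6 reference genes (0.51, adjusted p = 0.0039), with a pseudocount of 5 (0.26, adjusted p = 0.049) and with genes above background in every library (adjusted p = 0.042). CDKN2A was 54.3 to 56.6 in the control and 42.6 to 67.3 with the siRNA (0.10, 95% interval -0.29 to 0.49), and was called without siCARLo-1 v2&4 replicate 3 (0.28, adjusted p = 0.023). CDKN2C, at 8, 17 and 10 counts in the control and deposited values of 4, 3 and 7 with the siRNA, did not pass the filter and was not tested.

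In PC3 the directions of CDKN1B, CDKN2A and CDKN2D turned with scaling to the positive controls, and the CDKN2B call was lost. Endogenous values per positive control count were 10.4 ± 0.939 in PC3 siCTRL and 5.96 ± 0.329 in siCARLo-1 v2&4 (SD, n = 3). With scaling to the positive controls the median of all genes moved from 0.08 to -0.77. The members then read -0.32 for CDKN1B (adjusted p = 0.061), -0.76 for CDKN2A (adjusted p = 0.0016), 0.14 for CDKN2B (adjusted p = 0.40) and -0.60 for CDKN2D (adjusted p = 0.0019). Which scaling is right cannot be told from these files, because the amount of RNA loaded is unknown here. Values of negative probes were 2.87 ± 0.63 per 100000 in PC3 siCTRL and 5.71 ± 0.579 in siCARLo-1 v2&4. With the mean of the negative probes subtracted, CDKN2B rose by 1.04 and CDKN1B by 0.51, both still called.

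**Figure D4:**
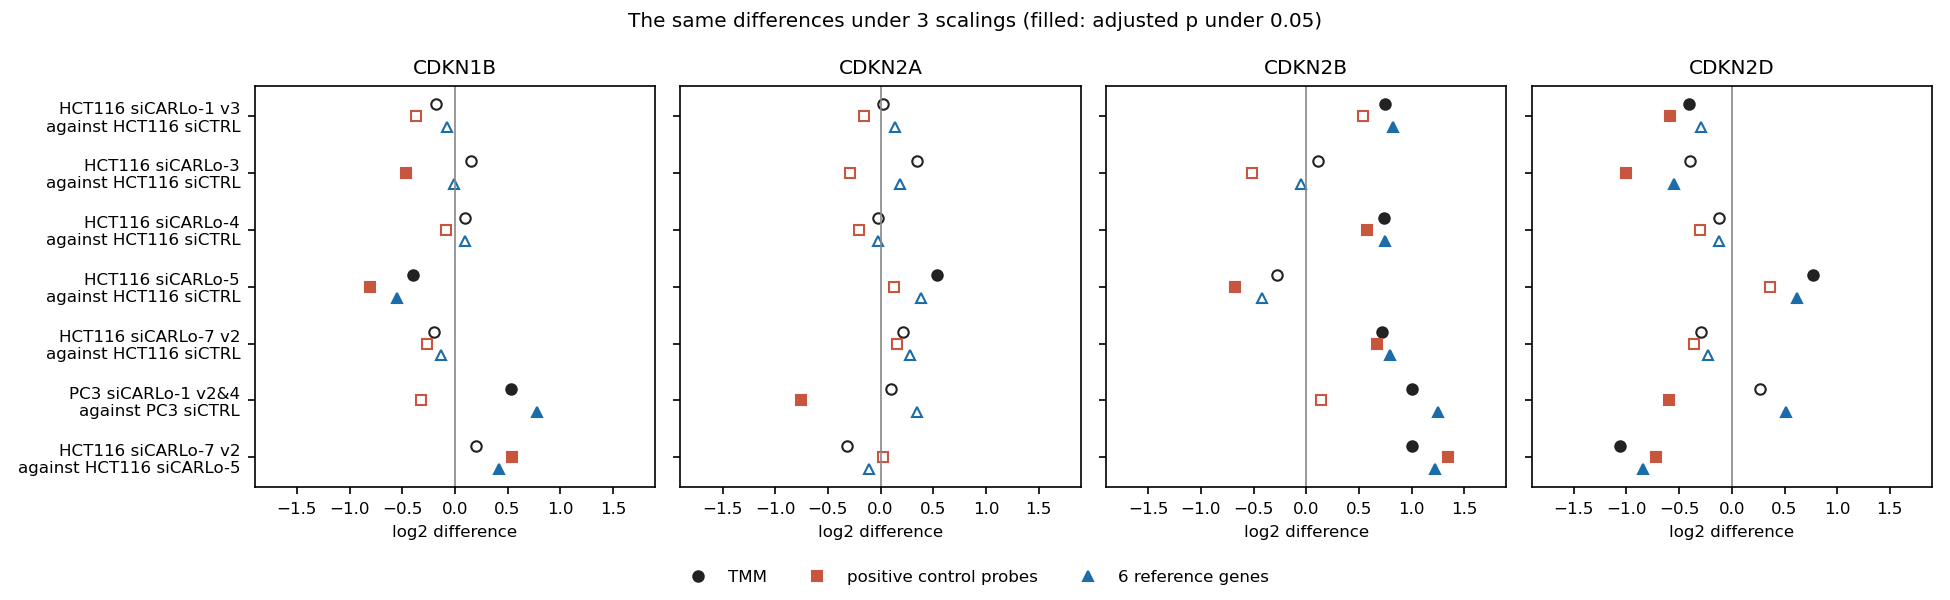
Log2 differences (x axis) of 4 members for 7 comparisons (rows), with libraries scaled by TMM, by the sum of the positive control probes or by 6 reference genes. Filled symbols have an adjusted p under 0.05. In the PC3 row the positive control symbols lie to the left, at -0.76 for CDKN2A, while in the bottom row CDKN2B stays right of 0 (1.0 to 1.35) and CDKN2D left of it (-1.06 to -0.72).

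Whether siCARLo-1 siRNAs went with different changes in the lines was tested as the effect of siCARLo-1 v3 in HCT116 minus that of siCARLo-1 v2&4 in PC3, in 1 limma fit of all 24 libraries. The siRNAs are labelled for different variants and were used at 50 nM and 100 nM, so line, variant and dose cannot be told apart. 2 of 5 members differed, where 55.4% of 184 genes did. CDKN1B differed by -0.62 ± 0.20 (adjusted p = 0.012) and CDKN2D by -0.56 ± 0.21 (adjusted p = 0.028). Against its own control CDKN1B read -0.18 in HCT116 (not called) and 0.53 in PC3 (called), and CDKN2D read -0.40 in HCT116 (called) and 0.27 in PC3 (not called). With scaling to the positive controls both were near 0 (-0.05 and 0.02). The CDKN2D difference was lost without HCT116 siCTRL replicate 1 or 3, replicate 1 of siCARLo-1 v3, or replicate 1 or 3 of siCARLo-1 v2&4 (adjusted p 0.057 to 0.085). CDKN2B differed by -0.27 (95% interval -1.0 to 0.45), and by -0.71 (adjusted p = 0.018) without HCT116 siCARLo-1 v3 replicate 3.

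Under control siRNA the 2 lines carried different amounts of the inhibitors, at 100 nM siRNA in PC3 and 50 nM in HCT116. The 2 controls are also in different sets of positive control sums, so line, dose and set cannot be told apart. CDKN2B, CDKN2A and CDKN2D were higher in PC3 and CDKN1B lower, 4 of 5 members, where 72.8% of 184 genes were called (edgeR over the 21 libraries with counts). CDKN2B showed the widest gap, 402, 342 and 396 counts in PC3 against 51, 64 and 32 in HCT116 (1.97 ± 0.24, 3.91-fold, adjusted p = 2.2e-07). CDKN2A had 121, 136 and 128 counts in PC3 (1.05 ± 0.18, 2.06-fold, adjusted p = 2.8e-05). CDKN2D had 208, 234 and 207 (0.67 ± 0.13, 1.59-fold, adjusted p = 1.0e-04). CDKN1B had 94, 83 and 101, which on the normalized scale is below the HCT116 controls (-0.57 ± 0.15, 1.49-fold lower, adjusted p = 0.0019). In none of these 4 did the lines overlap. How often that held over all 184 genes tested was not counted, so it says nothing particular of the members. CDKN2C, near background in both, differed by -0.12 (95% interval -0.84 to 0.61).

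Over all 8 groups the order of mean CDKN2B levels was PC3 siCARLo-1 v2&4 (309 ± 39.7, SD, n = 3), PC3 siCTRL (164 ± 23.3), then HCT116 siCARLo-4 (71.2 ± 1.79), siCARLo-1 v3 (70.5 ± 36.3), siCARLo-7 v2 (70.1 ± 11.4), siCARLo-3 (45.4 ± 5.55), siCTRL (41.9 ± 7.20) and siCARLo-5 (35.1 ± 7.49). The PC3 groups did not overlap each other or HCT116, and among HCT116 neighbours siCARLo-7 v2 and siCARLo-3 did not overlap. Without replicate 3 the siCARLo-1 v3 mean was 49.7, between siCARLo-7 v2 and siCARLo-3, and its other libraries (45.5 and 54.0) overlapped siCARLo-3. CDKN2D ran from PC3 siCARLo-1 v2&4 (105 ± 14.7), HCT116 siCARLo-5 (101 ± 6.67) and PC3 siCTRL (93.0 ± 1.37), which overlapped, down to the other HCT116 groups, from siCTRL (59.6 ± 6.76) to siCARLo-1 v3 (45.2 ± 4.59). These lay apart from the higher 3 and overlapped their neighbours. CDKN2A was highest in PC3 siCARLo-1 v2&4 (56.3 ± 12.6) and PC3 siCTRL (55.2 ± 1.21) and lowest in HCT116 siCARLo-4 (26.7 ± 0.643), with siCARLo-5 at 39.4 ± 6.12. PC3 siCTRL did not overlap HCT116, whereas siCARLo-1 v2&4 replicate 3 (42.6) lay below the highest libraries of siCARLo-5 (45.0) and siCARLo-3 (46.5). All neighbours within a line overlapped. CDKN1B ran from HCT116 siCARLo-3 (67.5 ± 2.96) to siCARLo-5 (45.7 ± 3.29) and PC3 siCTRL (40.1 ± 5.91), each group overlapping its neighbours.

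Other genes of the pathway were followed from lists chosen with these data known. Their counts stand beside 41% of the panel called with siCARLo-1 v3, 52.2% with siCARLo-3, 35.4% with siCARLo-4, 55.1% with siCARLo-5, 37.1% with siCARLo-7 v2 and 76% in PC3. With siCARLo-1 v3, the genes of the lists named as called below were called without its replicate 3 too, an alternative chosen after seeing the data. Of the INK4 targets, 5 on the panel and 4 tested in HCT116, cyclin D1 CCND1 was the member called higher in each siCARLo group, from 0.69 with siCARLo-4 to 1.26 with siCARLo-3 and 0.79 in PC3, where it read -0.08 with scaling to the positive controls. With siCARLo-5, 3 of 4 rose and 1 fell where 55.1% of the panel was called (list median 0.64, all genes 0.05). CDK4, a kinase that INK4 proteins bind, rose (0.52, adjusted p = 0.019), the cyclin D3 gene CCND3 rose (0.94) and CDK6 fell (-0.97). CDK4 was not called with scaling to the positive controls (0.09) or 6 reference genes (0.37). CDK6 also fell with siCARLo-3 (-0.91), siCARLo-4 (-0.63) and siCARLo-7 v2 (-0.58) and rose in PC3 (0.57, but -0.29 with the positive controls). With 6 reference genes the CDK6 fall with siCARLo-7 v2 was not called. With siCARLo-3, 2 of the 4 rose and 1 fell.

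Of the p27 targets, 4 tested in HCT116, all 4 fell with siCARLo-5, the group in which CDKN1B also was lower (median -0.50, all genes 0.05). Of all 178 genes, 29.8% fell there and 55.1% were called. They were the kinase CDK2 (-0.36), the E cyclins CCNE1 (-0.45) and CCNE2 (-0.75), and cyclin A2 CCNA2 (-0.54), and all 4 were also called lower with the other 2 scalings. In siCARLo-3, where CDKN1B was not called (0.15), CCNA2 (-0.48) and CCNE1 (-0.38) fell and 0 rose (median -0.41). Of all genes tested, 27% fell there. Reference gene scaling gave 3 falls of 4 in siCARLo-3, where 59 of all 178 genes fell. Scaling to the positive controls gave 4, where 118 of the 178 fell and CDKN1B was called lower too (-0.47). siCARLo-4 and siCARLo-7 v2 each had 1 fall and 0 rises, where 17.4% and 16.3% of all genes tested fell. Both falls were also called with the positive controls and neither with reference gene scaling. With TMM, falls of these genes were also called in groups where CDKN1B was not called. A link of these falls to CDKN1B was not tested. With siCARLo-1 v3, 2 rose and 2 fell. In PC3, 2 of 5 rose and 3 fell, CCNA2 by the most (-2.03), where 76% of the panel was called. Of the 5 genes of p27 turnover on the panel, SKP2, whose F-box protein recognises p27, fell with siCARLo-1 v3 (-0.64, and -0.52 without its replicate 3), siCARLo-3 (-1.35), siCARLo-5 (-0.27), siCARLo-7 v2 (-0.90) and in PC3 (-1.63). It was not called with siCARLo-4 (-0.11). CDC34, the ubiquitin-conjugating enzyme of that ligase, rose with siCARLo-1 v3 (0.47, and 0.46 without its replicate 3), siCARLo-4 (0.67), siCARLo-5 (0.63), siCARLo-7 v2 (0.84) and in PC3 (0.92). With the positive controls CDC34 was not called with siCARLo-1 v3 (0.27), siCARLo-5 (0.20) or in PC3 (0.06).

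Of the 7 TGF-beta and MYC genes that act on CDKN2B, 6 rose and 0 fell in PC3 with siCARLo-1 v2&4 (median 0.57, all genes 0.08), where 40.2% of all 179 genes rose and 76% were called. Among them were TGFB1 (0.55), TGFB2 (0.63), SMAD3 (0.92), SMAD4 (0.66) and MYC (0.57). With scaling to the positive controls 0 of the 7 rose there and 3 fell, MYC among them (-0.29). Under that scaling 11 of all 179 genes rose and 131 fell, with a median of -0.77. With siCARLo-4, 0 rose and 2 fell, MYC (-0.44) and SMAD4 (-0.53). With siCARLo-7 v2, MYC rose (0.20) and TGFB3 fell (-1.07). With siCARLo-1 v3, MYC (0.77) and SMAD3 (0.38) rose and TGFB3 fell (-0.98), at 0.77, 0.46 and -1.24 without its replicate 3. There SMAD3 was not called with the positive controls (0.20) and TGFB3 was not called with 6 reference genes (-0.88). With siCARLo-3, TGFB1 (0.95) and TGFB2 (1.19) rose and SMAD2 fell (-0.65), and with the positive controls neither rise was called. With siCARLo-5, TGFB1 (0.88) and MYC (0.21) rose and SMAD2 (-0.70) and SMAD4 (-0.29) fell. MYC was not called with siCARLo-3 (-0.06), and its rises with siCARLo-5 and siCARLo-7 v2 were not called with either other scaling.

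Of the 10 pocket protein and E2F genes, 3 fell and 1 rose with siCARLo-5, 4 called of 10 where 55.1% of the panel was, with the retinoblastoma gene RB1 at -0.49 and its relative RBL1 at -1.11. Without siCARLo-1 v3 replicate 3 in the shared spread, 3 rose there. With siCARLo-3, 5 fell and 2 rose where 52.2% of the panel was called, E2F1 by -1.78. In PC3, 5 fell and 4 rose where 76% was, with RBL1 at -2.03 and E2F1 at -1.41. MDM2, which encodes the protein that ARF binds, fell with siCARLo-5 (-0.50). It rose with siCARLo-1 v3 (0.46), siCARLo-3 (0.93) and siCARLo-7 v2 (0.53) and was not called with siCARLo-4 (-0.12). With the positive controls its rises with siCARLo-1 v3 (0.30) and siCARLo-3 (0.31) were not called. Of the other CDK inhibitors, CDKN1A, which encodes p21, rose in each siCARLo group (0.58 to 2.51 in HCT116, 2.60 in PC3), whereas CDKN1C, which encodes p57, rose in PC3 (0.52) and was not called in HCT116. With the positive controls CDKN1C fell in PC3 (-0.34), and 0 pocket protein and E2F genes rose with siCARLo-3, siCARLo-5 or in PC3. Over the panel only 11 of 178, 8 of 178 and 11 of 179 genes rose in these comparisons under that scaling.

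By the smallest root mean square difference of centred log2 levels over the 18 HCT116 libraries, among 164 genes, CDKN1B lay nearest HDAC2 (0.196) and CDK2 (0.205), against a median of 0.411. CDKN2A lay nearest YWHAQ (0.284) and RBX1 (0.296, median 0.463). CDKN2D lay nearest YWHAG (0.326) and FZR1 (0.327, median 0.544). CDKN2B lay nearest SMAD2 (0.403) and ORC5 (0.406, median 0.586). SMAD2 was not called with siCARLo-1 v3 (0.03), siCARLo-4 (-0.08) or siCARLo-7 v2 (-0.26), the HCT116 groups in which CDKN2B was called higher. A link between the 2 genes was not tested. The small distances of CDKN1B and CDKN2A go with their own small variation, a root mean square of 0.237 and 0.329, against 0.496 for CDKN2B and 0.434 for CDKN2D.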

How the data were processed

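RNA of 189 genes was measured by nCounter with 6 positive and 8 negative control probes in 24 libraries. The deposited tables of 7 groups hold counts, called raw data per the labels and whole numbers in each library. In 1 table, that of siCARLo-1 v2&4 in PC3, the deposited values are a score, counts the authors had scaled to a positive control sum of 13061. The series-wide table also holds such scores, with sums of 8964 to 8967 (control of HCT116), 12210 to 12212 (siCARLo-4, siCARLo-3 and siCARLo-1 v3) and 16033 to 16034 (control of PC3, siCARLo-7 v2 and siCARLo-5). The scaling of these scores was read from their values. How images became counts is not given in the sources used.

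Libraries were scaled with TMM (factors 0.912 to 1.10). Genes entered a test when 3 or more of its libraries showed them above background. HCT116 groups were tested with the edgeR 4.0.16 quasi-likelihood test on all 18 HCT116 libraries (common dispersion 0.00828, a coefficient of variation of 9.10%), the lines with edgeR on 21 libraries, and fits with scaled values with limma 3.58.1 on log2(value + 1). P-values were Benjamini-Hochberg adjusted over all genes tested, and calls needed an adjusted p under 0.05. A fold on the log2(value + 1) scale slightly understates changes of low genes. Alternatives were scaling by positive controls or 6 reference genes, other filters, DESeq2 1.42.0, limma, fewer samples, a pseudocount of 5 and the series-wide table. Other tools were R 4.3.3, Python 3.11.15, pandas 2.3.3 and matplotlib 3.10.9. The fits were tested on simulated data. Counts limit precision: below 20 counts, as for CDKN2C, a single molecule moves the value noticeably.

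HCT116 siCTRL replicates 1 and 2 differed little beyond counting noise (chi-square per degree of freedom 1.18, p = 0.0495) and were kept as 2 libraries, with 1 library as an alternative. Replicate numbers did not pair the samples: the correlations of deviations for equal numbers ran from -0.37 to 0.43 and in no comparison were all over 0.1. The members, gene lists and the rule for named genes (all members, panel genes of the pathway lists, and the 2 nearest genes of each member) were chosen with earlier results of these data known. Of the lists, a gene is not reported here.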

Additional observations from a re-analysis of the deposited data

Results flagged for a closer look

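CDKN1B and CDKN2D were marked because the siCARLo-1 effect differed between the lines in the test of the difference itself (limma, all 24 libraries). The effect of siCARLo-1 v3 in HCT116 minus that of siCARLo-1 v2&4 in PC3 was -0.62 for CDKN1B (adjusted p = 0.012) and -0.56 for CDKN2D (adjusted p = 0.028) on the log2 scale. Within HCT116, CDKN1B differed from the control by -0.18 (not called) and CDKN2D by -0.40 (called), and within PC3 by 0.53 (called) and 0.27 (not called). All 3 PC3 siCARLo-1 v2&4 libraries lay above the PC3 controls for CDKN1B, and all 3 HCT116 siCARLo-1 v3 libraries lay below the HCT116 controls for CDKN2D. The variant targeted and the dose differ together with the line, and with scaling to the positive controls the differences were -0.05 and 0.021.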

How the results depend on the processing

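Member calls for siCARLo-7 v2 against siCARLo-5 (2) numbered 3 with positive controls, reference genes and the series-wide table, where CDKN1B was also called, and 2 under the other alternatives run. Those for PC3 siCTRL against HCT116 siCTRL (4) numbered 3 in the series-wide table, where CDKN1B was not called, and 4 under the other alternatives run. For siCARLo-1 v3 (2 calls) the count was 1 with positive controls, reference genes, the series-wide table, DESeq2 and negative probe subtraction, 0 with limma, only the groups compared, merged controls and the replicate block, and 0 to 2 leaving out a replicate. For siCARLo-3 (0 calls) it was 2 with positive controls, 1 with reference genes, the series-wide table, limma and subtraction, and 0 to 1 leaving out a replicate. For siCARLo-4 (1 call) it was 0 with merged controls, and 0 to 1 leaving out a replicate. For siCARLo-5 (4 calls) it was 2 with positive controls, reference genes, merged controls and DESeq2, which gave CDKN2C no adjusted p, and 2 to 3 leaving out a replicate. With positive controls those 2 were CDKN1B and CDKN2B, both lower, and no member was called higher. For siCARLo-7 v2 (1 call) it was 5 in the series-wide table, 0 with merged controls and the replicate block, and 0 to 1 leaving out a replicate. The replicate block is a check only, since the numbers do not pair the samples. siCARLo-3 against siCARLo-1 v3 (0 calls) had 1 with positive controls, reference genes, the series-wide table, limma and subtraction, and 0 to 1 leaving out a replicate. siCARLo-4 against siCARLo-1 v3 (0) had 0 to 2, and siCARLo-4 against siCARLo-3 (0) had 2 with positive controls, 3 in the series-wide table, and 1 with reference genes, only the groups compared, subtraction or siCARLo-1 v3 replicate 3 out of the shared spread. The difference between lines (2) had 0 with positive controls, 4 in the series-wide table and 1 to 3 leaving out a replicate, 3 without HCT116 siCARLo-1 v3 replicate 3. In PC3 positive controls also gave 2 calls, CDKN2A and CDKN2D lower in place of CDKN1B and CDKN2B higher. With 6 reference genes, a pseudocount of 5 or genes above background in every library 3 were called there, CDKN2D higher as well, and leaving out a replicate gave 2 to 3.

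Reversed log2 differences were these. With positive controls, CDKN1B read -0.47 with siCARLo-3, and in PC3 CDKN1B -0.32, CDKN2A -0.76 and CDKN2D -0.60, with CDKN2D at 0.021 in the difference between lines. The series-wide table gave CDKN1B 0.0197 with siCARLo-5, 0.54 with siCARLo-7 v2, 0.36 for siCARLo-4 against siCARLo-3 and 0.23 for PC3 siCTRL against HCT116 siCTRL, and CDKN2D 0.47 with siCARLo-7 v2. In PC3 it gave -0.61, -1.04, -0.15 and -0.89 for CDKN1B, CDKN2A, CDKN2B and CDKN2D, and between lines 0.68, 1.04 and 0.75 for CDKN1B, CDKN2B and CDKN2D. The sums of the positive controls differ between its sets, which moves all genes across sets by construction. CDKN2B in siCARLo-4 against siCARLo-1 v3 ran from -0.21 to 0.49 leaving out a replicate, the latter without siCARLo-1 v3 replicate 3.

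Over the panel the series-wide table gave 139 calls for siCARLo-7 v2 (66 in the main fit), 49 for siCARLo-4 against siCARLo-1 v3 (81) and 158 for the difference between lines (102). Genes higher and lower, 45 and 53 for siCARLo-5, were 8 and 82 with positive controls and 28 and 61 with reference genes. For siCARLo-3 they were 45 and 48, then 11 and 118, then 27 and 59. For siCARLo-1 v3 they were 30 and 43, then 10 and 47, then 34 and 17. For siCARLo-4 they were 32 and 31, and 13 and 40 with positive controls. For siCARLo-7 v2 they were 37 and 29, and 31 and 13 with reference genes. For PC3 they were 72 and 64, then 11 and 131, then 92 and 43. The median of all genes with positive controls was -0.16, -0.61, -0.18 and -0.36 for siCARLo-1 v3, siCARLo-3, siCARLo-4 and siCARLo-5. In the contrasts without controls, siCARLo-7 v2 against siCARLo-5 had 53 and 40, then 93 and 12, then 79 and 18. siCARLo-3 against siCARLo-1 v3 had 50 and 48, then 12 and 86, then 18 and 66. siCARLo-4 against siCARLo-1 v3 had 47 and 34, and 25 and 39 with reference genes, and siCARLo-4 against siCARLo-3 had 38 and 40, then 95 and 11, then 51 and 23. The difference between lines had 60 and 42, then 96 and 8, then 34 and 52, and PC3 siCTRL against HCT116 siCTRL had 71 and 63, and 43 and 71 with reference genes.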
